A study of Mus musculus with 30 samples.

Results

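A group of 40 mouse genes that carry out DNA replication was followed through primary fibroblasts, transformed fibroblasts and tumours that differed in the chromatin gene Smchd1. A gene belonged to the group if an array probe carried its current or older symbol, and each was read from its brightest detected probe. All 40 genes had a probe, and 37 had one that passed the detection filter, out of 13870 genes that passed it in all. Prim1 was detected on 1 array, and Gmnn and Pola1 on none, so these 3 are not described further.

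RNA was measured on 30 single-colour Illumina mouse arrays in 6 groups. Primary mouse embryonic fibroblasts (MEFs) were harvested after 2 to 3 passages. Transformed MEFs carried a p53 knockdown and overexpressed HRasv12, and were harvested 2 weeks after transformation. Tumours had grown from transformed MEFs in nude mice. At each stage, cells were Smchd1 wildtype (FVB/N mice) or Smchd1 null (mice with the MommeD1 point mutation, on a background that the labels spell FBV/N). Both genotypes of transformed MEFs and tumours shared the p53 knockdown and HRasv12. Each genotype had 3 arrays in primary and 3 in transformed MEFs, and 9 in tumours, from 3 recipient mice with 3 arrays each. A tumour replicate was a recipient (1 to 3 wildtype, 4 to 6 null), so every group had n = 3. Nothing in the labels ties culture replicates to different embryos or cultures. Their p-values may therefore reflect technical spread only.

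Before S phase, origins are bound by the origin recognition complex, and CDC6 and CDT1 load the MCM helicase onto them. CDC45 and the GINS complex then activate the helicase, primase and the replicative polymerases copy the strands, and the clamp PCNA, loaded by replication factor C, holds the polymerases on DNA. Many of these genes are transcribed at the G1/S boundary under E2F transcription factors, and their RNA is widely read as a measure of how actively a cell population is cycling.

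The promoters of these genes are shown first because E2F factors act there. Sequences were the 300 bases from 250 before to 50 after the annotated start, from RefSeq with build GRCm38.p6, written 5′ to 3′ on the gene's strand. They were found for 32 of the 40 genes. Capitals mark any of 4 E2F 8-mers, TTTCCCGC, TTTGGCGC, TTTCGCGC and TTTGCCGC, on either strand, and overlapping matches were counted as 1. The 4 below belong to Mcm3 and Mcm5, helicase subunits with the largest difference and the smallest p between genotypes of transformed MEFs, and to Pcna and Rrm1, the 2 genes whose genotype difference itself differed between culture stages. They lie at chr1:20820263-20820562 (minus strand), chr8:75109259-75109558 (plus), chr2:132253131-132253430 (minus) and chr7:102441445-102441744 (plus), in that order.
Mcm3: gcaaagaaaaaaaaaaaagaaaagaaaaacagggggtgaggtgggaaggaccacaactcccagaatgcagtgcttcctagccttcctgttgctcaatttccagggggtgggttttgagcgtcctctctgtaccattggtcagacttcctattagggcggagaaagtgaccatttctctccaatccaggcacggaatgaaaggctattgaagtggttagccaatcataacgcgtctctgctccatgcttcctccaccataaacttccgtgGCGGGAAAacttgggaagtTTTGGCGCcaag
Mcm5: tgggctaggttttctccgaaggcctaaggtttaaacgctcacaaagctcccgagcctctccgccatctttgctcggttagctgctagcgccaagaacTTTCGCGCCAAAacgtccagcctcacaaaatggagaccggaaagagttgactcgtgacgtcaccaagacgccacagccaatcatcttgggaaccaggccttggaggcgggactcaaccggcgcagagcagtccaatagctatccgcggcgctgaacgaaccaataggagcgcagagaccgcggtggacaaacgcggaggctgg
Pcna: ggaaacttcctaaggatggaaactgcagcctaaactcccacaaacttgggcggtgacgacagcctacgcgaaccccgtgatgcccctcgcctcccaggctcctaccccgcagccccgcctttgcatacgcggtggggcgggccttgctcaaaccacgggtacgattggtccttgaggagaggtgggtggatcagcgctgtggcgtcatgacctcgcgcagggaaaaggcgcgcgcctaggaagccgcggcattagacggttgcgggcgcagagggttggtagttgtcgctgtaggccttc
Rrm1: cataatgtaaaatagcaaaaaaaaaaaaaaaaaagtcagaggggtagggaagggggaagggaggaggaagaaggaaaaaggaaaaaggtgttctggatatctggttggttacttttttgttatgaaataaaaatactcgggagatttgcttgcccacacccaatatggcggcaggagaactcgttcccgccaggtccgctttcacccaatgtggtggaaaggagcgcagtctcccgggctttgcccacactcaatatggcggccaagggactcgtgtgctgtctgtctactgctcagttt

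An E2F 8-mer was present in 11 of 36 promoters of the replication genes (30.6%), against 744 of all 32851 promoters (2.26%) and 433 of the 11658 promoters of genes tested (3.71%). The share was alike in 48 promoters of other replication genes (27.1%) and 33 of E2F, Rb and cyclin-dependent kinase regulators (27.3%). Of the genes called higher in null transformed MEFs, 2 of the 8 promoters found held one (25%). Mcm3, Mcm6, Mcm7 and Rfc3 each had a promoter with 2 matches. Those in the Mcm3 promoter began 20 and 39 bases from the start, and the match in Mcm5 began at -153. Of the genes of mitosis, 1 of 27 promoters held such an 8-mer (3.7%). The letters CCAAT, on either strand, were in 52.8% of the replication promoters, 70.4% of the mitosis promoters and 37.4% of all promoters. Pcna and Rrm1 had no E2F 8-mer in the window shown and 1 and 2 CCAAT matches. These letters describe the sequences and do not show that a site was bound.

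The values were log2 intensities, quantile normalized over all arrays. A gene was called at a Benjamini-Hochberg adjusted p under 0.05, by limma over all 13870 genes. Smchd1 itself was at 9.58, 9.61 and 9.55 in wildtype and at 7.18, 7.35 and 7.24 in null primary MEFs. Its log2 difference, null minus wildtype, was -2.32 ± 0.09 (SE) in primary and -2.13 ± 0.10 in transformed MEFs. Tumours had a difference of -1.18 ± 0.15, which limma did not call (adjusted p = 1). Fibroblast markers averaged between 11.35 and 12.28 in every sample, but single ones moved with transformation in opposite directions. Of 12, limma called 6 higher and 5 lower in wildtype, and 5 higher and 5 lower in null cells. Of all genes, 52% and 54.4% were called. The collagen gene Col1a1 differed by -1.82 in wildtype and -2.12 in null, and S100a4 by 2.59 and 2.82. Macrophage and leukocyte markers averaged 10.64 to 10.93 in wildtype primary MEFs, 6.10 to 6.24 in transformed MEFs and 10.81 to 11.70 in tumours, and the background was about 6.33 in transformed MEFs. Recipients' tumours are bulk tissue, in which fewer cells of a type and less RNA per cell cannot be told apart. The array of wildtype recipient 3 on tumour chip 3 stood apart, with a highest correlation to any other array of 0.926. Tumours varied more between replicates than cultures, with a median variance of 0.0947 against 0.0196 in primary and 0.0166 in transformed MEFs.

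Over the 6 groups, 17 of the 37 replication genes had their highest mean in Smchd1 null transformed MEFs and 18 had their lowest in Smchd1 null tumours. Ranks and means across stages depend on the joint normalization of all arrays, and the like counts over all genes were not taken. The mean over the 37 genes was 9.86, 9.87 and 9.88 in wildtype primary MEFs and 9.82, 9.88 and 9.63 in null primary MEFs. It was 9.78, 9.80 and 9.76 in wildtype transformed MEFs and 10.08, 10.09 and 10.11 in null ones. In tumours it was 9.65, 9.86 and 9.75 in wildtype and 9.67, 9.55 and 9.64 in null recipients. The null transformed MEFs therefore lay above every other sample, with the narrowest spread after wildtype primary MEFs, while the 2 tumour groups overlapped.

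**Figure D1:**
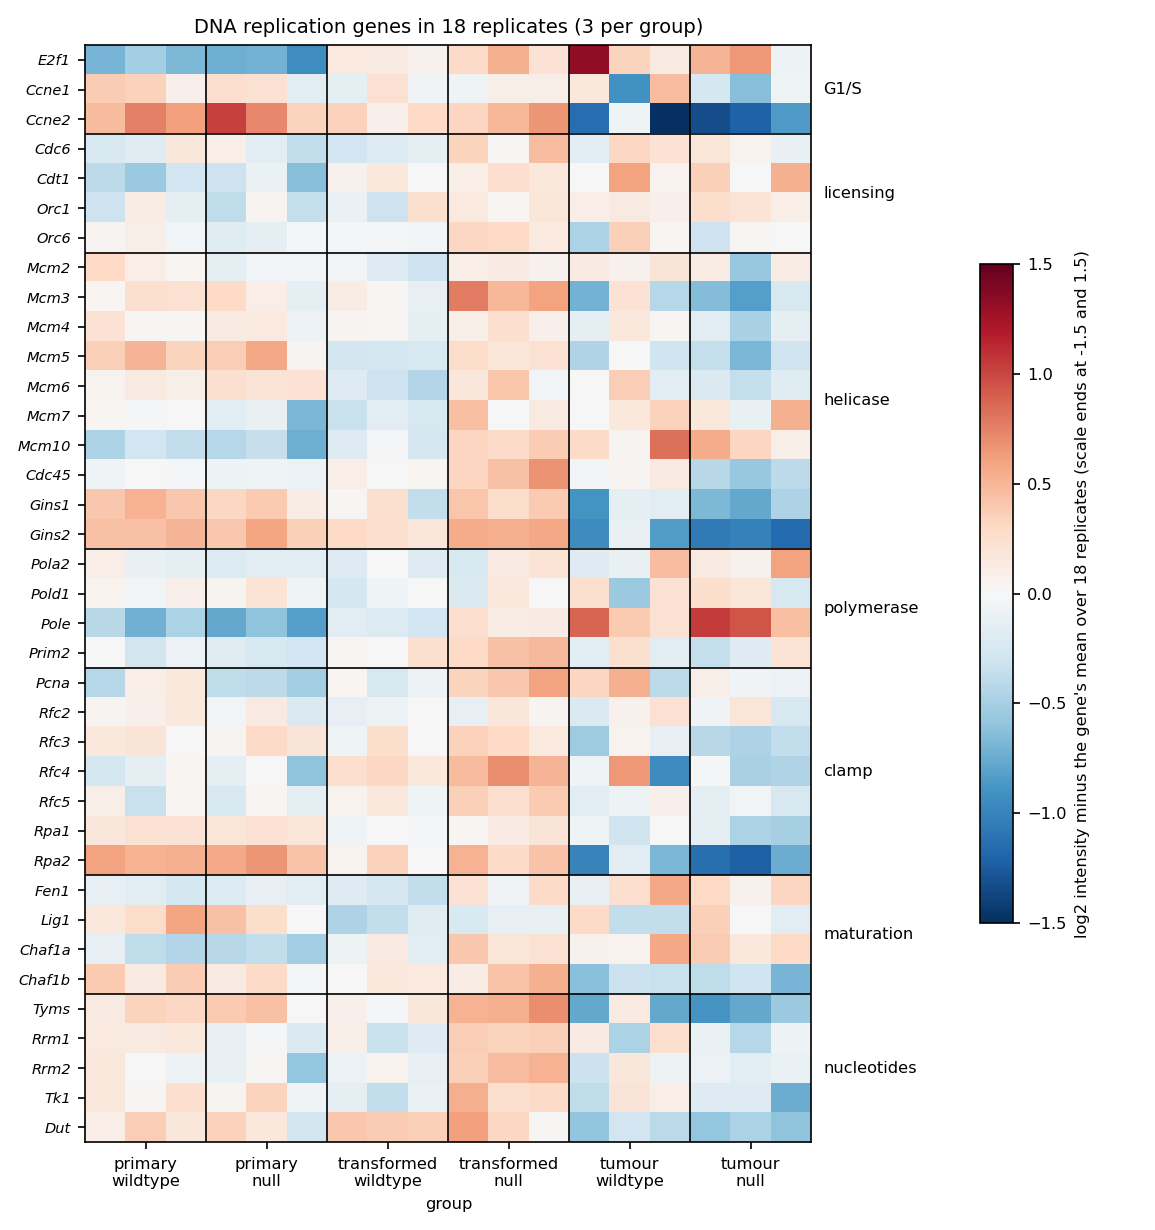
Each row is a replication gene and each column a replicate (3 per group), coloured by log2 intensity minus the gene's mean over the 18 replicates. After joint normalization, null transformed MEFs were the highest group for 17 of the 37 genes, and null tumours the lowest for 18.

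Single genes differed in how far, and in which direction, their groups lay apart. E2f1, the transcription factor that drives the G1/S programme, was lowest in primary MEFs, at 10.77 ± 0.10 (SD, n = 3) in wildtype and 10.61 ± 0.12 in null. It was at 11.51 ± 0.05 and 11.75 ± 0.16 in transformed MEFs. In tumours it was at 12.73, 11.74 and 11.54 in wildtype and 11.91, 12.05 and 11.32 in null recipients, so the genotypes overlapped. Orc6, a subunit of the origin recognition complex, stayed between group means of 11.57 (null primary) and 11.94 (null transformed). Mcm4, a helicase subunit, had group means from 12.53 ± 0.19 in null tumours to 12.93 ± 0.10 in null transformed MEFs. Pold1, the catalytic subunit of the lagging-strand polymerase delta, had group means between 10.77 and 10.94, within the SD of single groups. Rpa1, the large subunit of the single-strand binding protein, went from 12.73 ± 0.03 in wildtype primary MEFs to 12.16 ± 0.20 in null tumours. Fen1, the nuclease that trims Okazaki fragments, was at 11.04 ± 0.09 in wildtype transformed MEFs and 11.55 ± 0.34 in wildtype tumours.

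Comparing genotypes in transformed MEFs, 36 of the 37 replication genes were higher in Smchd1 null cells, by a median log2 difference of 0.31 (1.24-fold), where the median of all genes was 0.0005. limma called 10 of them higher and none lower. This was 27% of the genes, against a background of 6.53% of all genes called in either direction and 2.98% called higher. The replicates of the 2 genotypes did not overlap for 25 of the 37 genes, all higher in null cells, against 14.4% of all genes. The exception in direction was Dut, the enzyme that hydrolyses dUTP, at -0.06 ± 0.14.

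Of the helicase genes, Mcm3, Mcm5, Mcm10 and Gins2 were called, and all 10 were higher in null cells (median 0.44). Mcm3 was at 8.98, 8.88 and 8.74 in wildtype and at 9.64, 9.36 and 9.47 in null transformed MEFs. Its difference of 0.63 ± 0.10 was the largest among the replication genes (1.55-fold, limma adjusted p = 0.0156). Mcm5 was at 11.63, 11.65 and 11.67 in wildtype and at 12.19, 12.09 and 12.14 in null cells, with a difference of 0.49 ± 0.07 (adjusted p = 0.012). Both groups were tight, and every null replicate exceeded every wildtype one. Mcm10, which helps to activate the loaded helicase, was at 10.14, 10.30 and 10.07 against 10.65, 10.62 and 10.72. Gins2, a GINS subunit, rose less, by 0.32 ± 0.08, from 9.76, 9.71 and 9.65 to 10.02, 10.01 and 10.04. Cdc45 (0.44), Mcm6 (0.50) and Mcm7 (0.45) had adjusted p-values of 0.0501, 0.0624 and 0.0765 and were not called.

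Of the nucleotide supply genes, 4 of 5 were called. Tyms, which makes thymidylate, was at 10.59, 10.49 and 10.69 in wildtype and 11.05, 11.07 and 11.22 in null transformed MEFs (difference 0.52 ± 0.09, adjusted p = 0.0178). Tk1, the thymidine salvage kinase, was at 10.48, 10.25 and 10.52 against 11.16, 10.86 and 10.91, a difference of 0.56 ± 0.11 (adjusted p = 0.0296). The subunits of ribonucleotide reductase moved by like amounts. Rrm1, the large subunit, was at 10.82, 10.40 and 10.55 in wildtype and 11.11, 11.07 and 11.10 in null cells (0.50 ± 0.11, adjusted p = 0.0408). Rrm2, the small subunit, was at 9.71, 9.85 and 9.68 against 10.15, 10.25 and 10.31 (0.49 ± 0.09, adjusted p = 0.0184).

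Elsewhere the calls were single. Pcna, the sliding clamp, was at 6.82, 6.54 and 6.71 in wildtype and 7.12, 7.19 and 7.38 in null transformed MEFs, a difference of 0.54 ± 0.11 (adjusted p = 0.0278). Its probe was dim, near the background of 6.33, and was detected on 12 of the 30 arrays. Pole, the catalytic subunit of the leading-strand polymerase, was at 7.72, 7.67 and 7.59 against 8.13, 7.99 and 8.0 (0.38 ± 0.08, adjusted p = 0.0361). No gene of origin licensing, G1/S control or Okazaki fragment maturation was called, although all 11 measured had positive differences. E2f1 was at 0.24 ± 0.10 (adjusted p = 0.208), and Ccne1, cyclin E1, at 0.03.

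**Figure D2:**
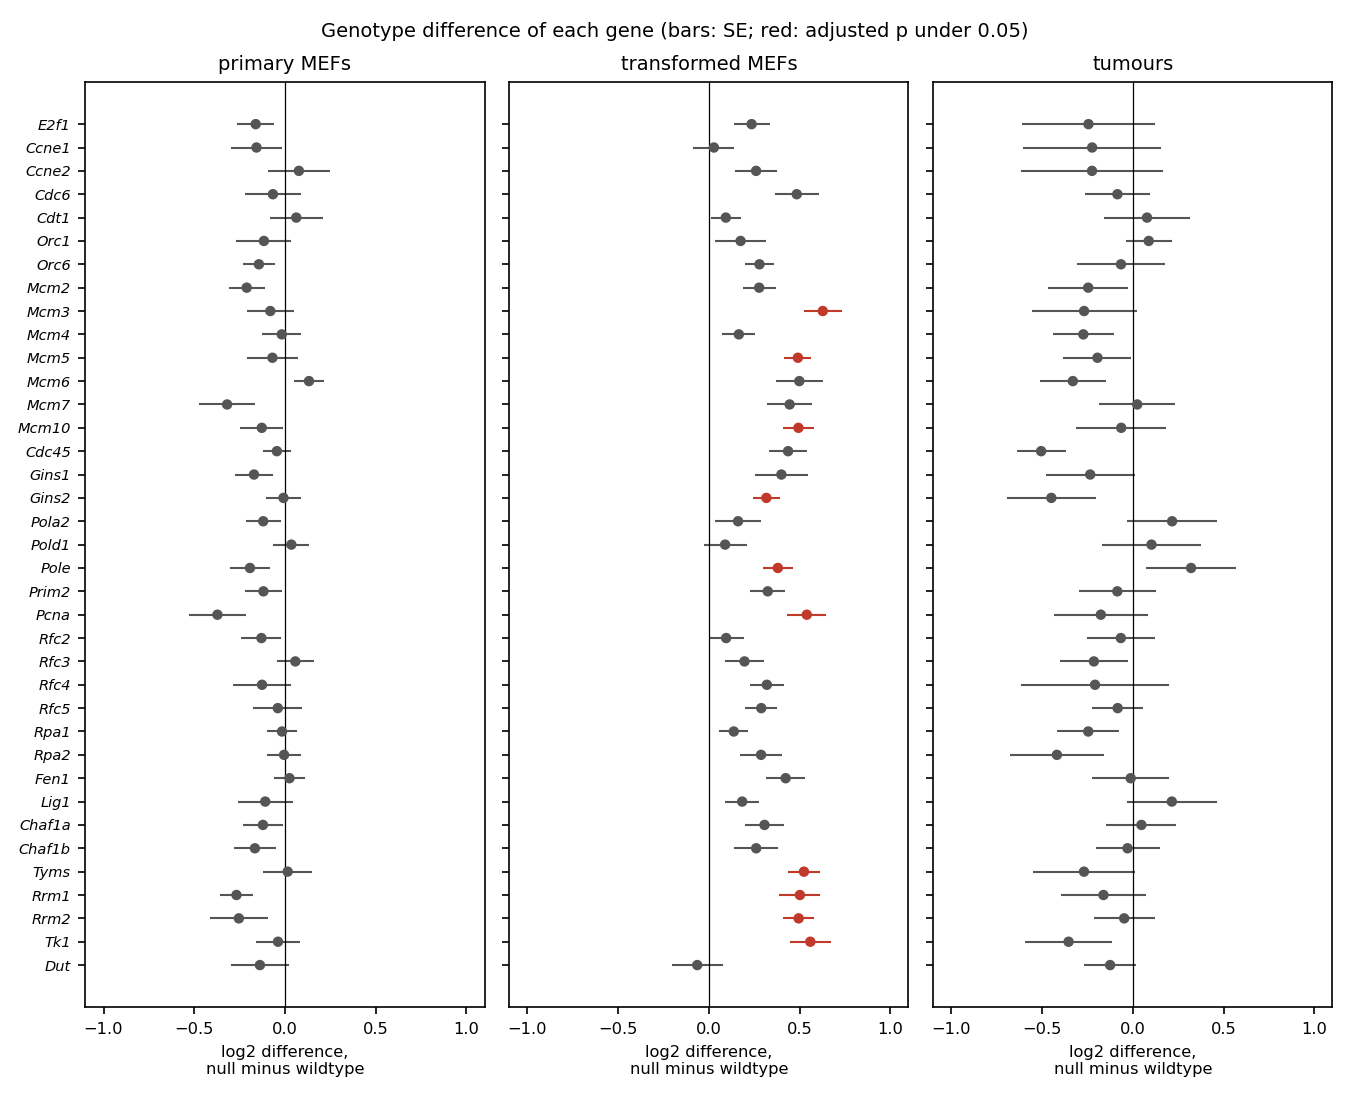
Points are log2 differences, null minus wildtype, of 37 replication genes in primary MEFs, transformed MEFs and tumours, with SE bars (n = 3 per group) and red for genes called by limma. In transformed MEFs 36 of 37 lie above 0 and 10 are red, and neither other panel has a red point.

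The 10 calls were not stable. With the spread shared by all 6 groups none was called, but that spread takes in the more variable tumours. In earlier work on these data it did not hold its error rate on simulated data, so it does not decide whether the calls hold. Leaving out any of the 6 replicates gave between 1 and 6 calls. The count was 5, 6 and 1 without null replicates 1, 2 and 3, and 4, 3 and 1 without wildtype replicates 1, 2 and 3, whereas the median difference stayed between 0.28 and 0.34. Of 17 genes with more than 1 detected probe, 13 had the same sign in all of them; those with a mixed sign were Lig1, Mcm6, Rfc5 and Rpa2. Each culture stage lay on 1 chip, so both genotypes were compared within a chip.

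Of genes outside the group, many were higher in null transformed MEFs too. Over all genes, 6.53% were called in either direction and 2.98% called higher. Of the 36 other replication genes measured, 4 were called higher: Nasp (0.65), a histone chaperone, Chtf18 (0.43), of an alternative clamp loader, Dbf4 (0.42), the activator of the CDC7 kinase, and Clspn (0.47), a fork checkpoint protein. These 4 were 11.1% of that list, and the list median was 0.21. Of the 24 mitosis genes, 19 were called higher (79.2%), with a list median of 0.54. Those with the smallest p were Kif11 (0.67), Bub1b (0.62), Plk1 (0.65) and Kif2c (0.53). Among 24 regulators of E2F, Rb and the cyclin-dependent kinases, 2 were called higher (8.33%), Cdc25a (0.57) and Skp2 (0.43). The median of these regulators was 0.13, and 7 of the 24 had negative differences. Of 12 fibroblast markers 3 were called lower, Lum (-1.49), Pdgfra (-0.43) and Pdgfrb (-0.40), and their mean was 11.95 ± 0.05 in wildtype and 11.67 ± 0.08 in null transformed MEFs. The part of cell type in these differences was not tested.

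**Figure D3:**
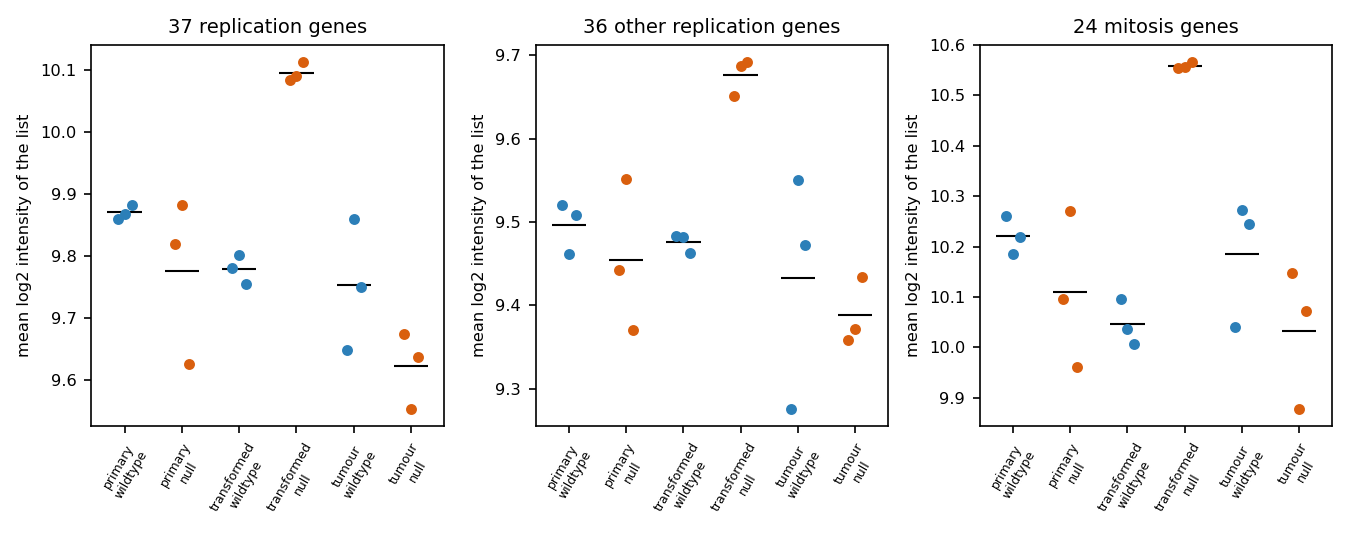
Points are replicates, showing the mean log2 intensity of 37 replication genes, 36 other replication genes and 24 mitosis genes in each group, with bars for group means (blue wildtype, orange null). In each panel the 3 null transformed replicates lie above every other sample.

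In primary MEFs no replication gene was called between genotypes, and 30 of 37 were lower in null cells, by a median of -0.12 (all genes -0.01). limma called 0.0505% of all genes here, and at an unadjusted p under 0.05 it gave 2 of the 37 genes and 790 of all. Replicates did not overlap for 8 of the 37 genes (21.6%), against 10.3% of all genes. Of the 37 genes, 7 did not overlap and were lower in null cells, against 5.91% of all genes. Among all genes that did not overlap, 820 of 1428 were lower. Rrm1 was at 10.88, 10.88 and 10.90 in wildtype and 10.63, 10.72 and 10.52 in null primary MEFs, a difference of -0.27 ± 0.09 (adjusted p = 0.783). Pcna was at 6.35, 6.88 and 6.94 against 6.40, 6.39 and 6.27, so its groups overlapped (-0.37 ± 0.16, adjusted p = 0.846). Mcm2 was at 10.58, 10.38 and 10.31 against 10.15, 10.24 and 10.24 (-0.21 ± 0.10, adjusted p = 0.846), with no overlap. The shift rested on null replicate 3, whose mean over the 37 genes was 9.63: without it the median was -0.01. Of the 17 genes with more than 1 detected probe, 9 had probes of opposite sign here. All 8 keratinocyte and epithelial markers were higher in null primary MEFs, by a median of 0.71, with none called, and their mean was 9.08 ± 0.24 in wildtype and 9.75 ± 0.33 in null. Fibroblast markers were lower in null primary MEFs for 10 of 12 (median -0.13) and skeletal muscle markers for 6 of 6 (-0.28), also with none called. The part of these cells in the result was not tested.

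The interaction term asked whether the genotype difference itself differed between the culture stages. It was larger in transformed than in primary MEFs for all 37 replication genes, by a median log2 value of 0.42, where the median of all genes was 0.01. limma called 2 of them, or 5.41%, both larger, against a background of 2.36% of all genes called in either direction and 0.836% called larger. For Pcna the genotype difference was larger by 0.91 ± 0.20 (adjusted p = 0.0341), and for Rrm1 by 0.77 ± 0.14 (adjusted p = 0.0152). Both had opposite signs in the 2 stages, lower in null primary and higher in null transformed MEFs. Pcna lay near background in null primary MEFs (mean 6.35, background 6.26), which limits the size of its term. Mcm3 had the next smallest p, with 0.71 ± 0.17 (adjusted p = 0.0517), and was not called. Rrm1 was called in every fit but that with the spread shared by all groups, which takes in the more variable tumours. Pcna lost its call in 11 of the 17 other fits that measured it. The count was 1 without null primary replicate 3, wildtype primary replicate 3, null transformed replicates 2 or 3, or wildtype transformed replicates 2 or 3, and 7 without null primary replicate 2. Of mitosis genes 9 of 24 were called, the smallest p being those of Kif2c (0.92), Cdk1 (0.82), Bub1b (0.84) and Kif11 (0.72), and of the other replication genes Clspn (0.67).

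Transformation was then compared within each genotype. In wildtype cells 5 replication genes rose and 10 fell, and 22 were not called. These 40.5% lay below the background of 52% of all genes called, of which 26.4% rose and 25.6% fell. E2f1 rose from 10.70, 10.89 and 10.73 in primary to 11.55, 11.53 and 11.46 in transformed wildtype MEFs, by 0.74 ± 0.10 (limma adjusted p = 4.66e-05). Cdt1, the licensing factor, rose from 10.72, 10.55 and 10.82 to 11.17, 11.26 and 11.11 (0.49 ± 0.12, adjusted p = 0.00521). Rfc4, a clamp loader subunit, rose by 0.36 ± 0.14, and Pole and Chaf1a, of the chromatin assembly factor, by 0.33 and 0.28.

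Falls in wildtype cells were led by Lig1, the ligase that joins Okazaki fragments. It went from 10.70, 10.82 and 11.13 to 10.07, 10.17 and 10.35, a difference of -0.68 ± 0.13 (adjusted p = 0.000817). Mcm5 went from 12.26, 12.42 and 12.24 to 11.63, 11.65 and 11.67 (-0.66 ± 0.12, adjusted p = 0.000429). Gins1 went from 9.17, 9.30 and 9.17 to 8.79, 9.01 and 8.40 (-0.48 ± 0.13, adjusted p = 0.00859). None of these 3 genes overlapped between stages. The other 7 that fell were Rpa2, Mcm6, Tk1, Mcm2, Rrm1, Rpa1 and Gins2. Probes of opposite sign were found for 6 of 17 genes, among them Lig1, Tk1, Rpa2 and Pole, so the direction of these 4 is uncertain. For Tk1 the second probe, detected on all 30 arrays, gave 0.32 against -0.34, and 2 of the other 3 Lig1 probes gave 0.06 and 0.19. With the spread shared by all 6 groups, which takes in the more variable tumours, 5 genes were called. Without primary wildtype replicate 2 there were 9, and with the values as deposited 2 rose and 13 fell.

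In Smchd1 null cells 18 replication genes rose with transformation and 1 fell, 51.4% of the group against 54.4% of all genes, of which 28.7% rose and 25.8% fell. Their median was 0.31, where that of all genes was 0.04. E2f1 rose from 10.67, 10.69 and 10.47 to 11.69, 11.93 and 11.62, by 1.14 ± 0.10 (2.2-fold, adjusted p = 8.1e-07). Pole rose from 7.11, 7.27 and 7.05 to 8.13, 7.99 and 8.0, by 0.90 ± 0.10 (adjusted p = 5.79e-06). Pcna rose from 6.40, 6.39 and 6.27 to 7.12, 7.19 and 7.38, by 0.88 ± 0.14 (adjusted p = 0.000175). Its primary level lay near the background of 6.26 in that group, which limits the size of this rise. Lig1 fell here too, from 10.98, 10.80 and 10.54 to 10.31, 10.42 and 10.42, a difference of -0.39 ± 0.13 (adjusted p = 0.0245). This was smaller than the range of its null primary replicates, and another Lig1 probe gave 0.19, so its direction is uncertain. The differences of E2f1, Pole and Pcna exceeded the spread of their replicates. Stage and chip changed together in these comparisons and cannot be told apart, and they share samples with the genotype comparisons.

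**Figure D4:**
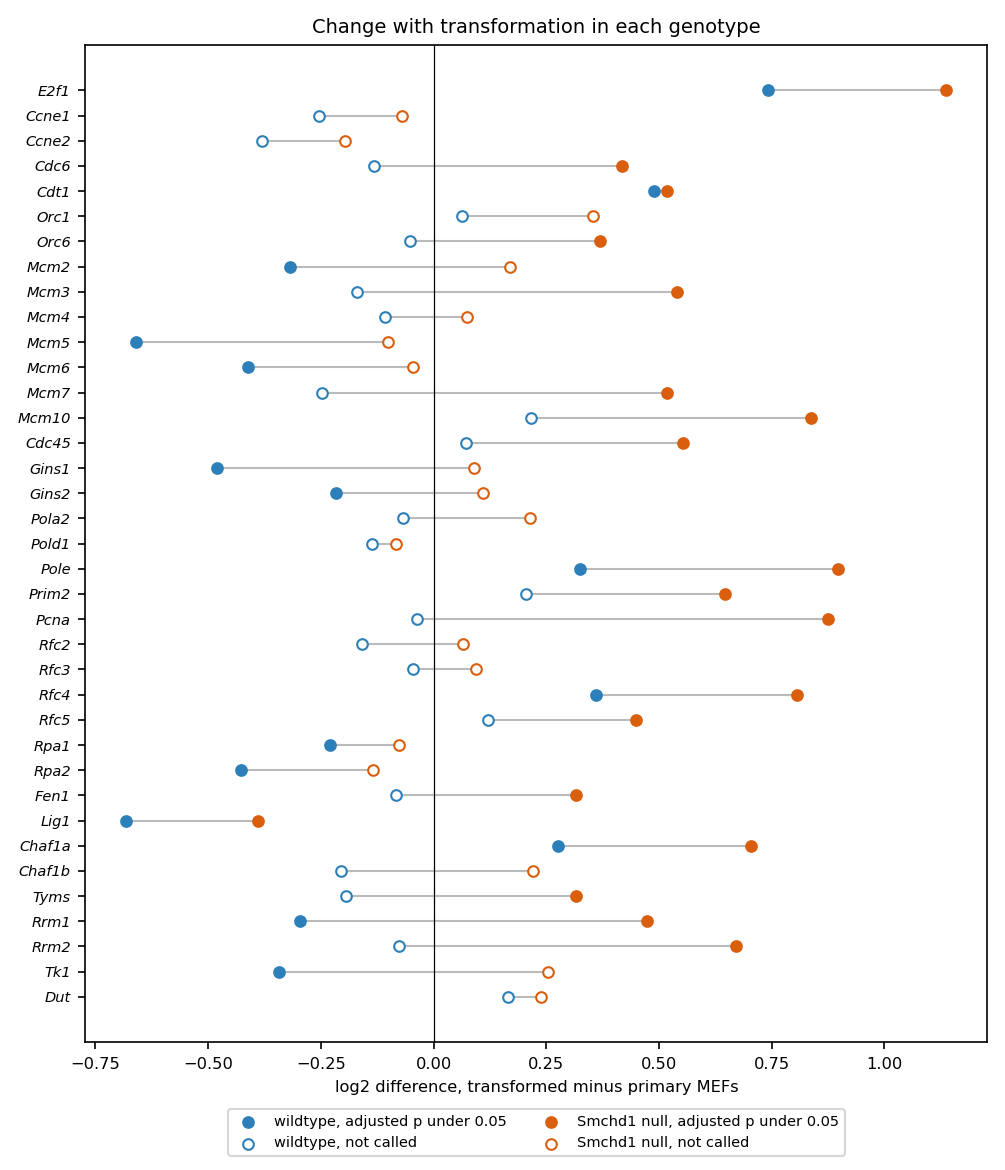
Each line joins a replication gene's log2 difference, transformed minus primary MEFs, in wildtype (blue) and Smchd1 null (orange) cells, with filled points for genes called by limma. The null point lies to the right of the wildtype point for all 37 genes, with the longest line for Pcna.

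The regulators around these genes were called with transformation about as often as all genes. Of the 24 E2F, Rb and cyclin-dependent kinase regulators, 54.2% were called in each genotype, against 52% of all genes in wildtype and 54.4% in null. Their medians were -0.06 and 0.12, and the genes named next moved far more than that. Cdkn2a, which encodes an inhibitor of CDK4 and CDK6, was below background in primary MEFs (6.16 in wildtype and 6.21 in null) and at 14.34 and 14.18 in transformed MEFs, so its rise has only a lower bound. Its neighbour Cdkn2b rose by 3.4 in wildtype and 3.55 in null cells. Ccnd1, cyclin D1, rose by 2.08 and 2.35, and Cdkn1c, another inhibitor, had differences of -1.64 and -2.22. Macrophage and leukocyte markers fell in all 10 of 10 measured in both genotypes. In transformed MEFs 8 of them in wildtype and 7 in null lay below background, so the size of their fall is only bounded. The part of these cells in the levels of replication genes in primary MEFs was not tested.

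In tumours no replication gene was called between genotypes, and limma called 0% of all genes. At an unadjusted p under 0.05 it gave 1 of the 37 genes and 313 of all. Smchd1 itself was not called, though it was at 9.16, 9.46 and 9.33 in wildtype and 8.01, 8.14 and 8.25 in null recipients. The lack of calls therefore cannot show that levels were equal. The fit with the spread shared by all 6 groups, and that of single arrays with recipient as a random block, also called none of the 37. Null tumours were lower for 29 genes, with a median of -0.16 (all genes -0.005), and 3 genes did not overlap, all lower in null tumours, against 3.11% of all genes. Cdc45 was at 9.32, 9.40 and 9.49 in wildtype recipients and 8.94, 8.78 and 8.96 in null ones, a difference of -0.51 ± 0.14 (adjusted p = 1). Mcm6 was at 10.91, 11.27 and 10.74 against 10.68, 10.54 and 10.72 (-0.33 ± 0.18, adjusted p = 1). Gins2 was at 8.52, 9.35 and 8.63 against 8.40, 8.46 and 8.29 (-0.45 ± 0.25, adjusted p = 1). These are the 3 that did not overlap, and for Mcm6 and Gins2 the gap was small beside the wildtype spread. Of 17 genes with more than 1 detected probe, 4 had probes of opposite sign between tumour genotypes: Lig1, Mcm7, Rfc2 and Rfc5.

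On single tumour chips the median genotype difference was -0.20, -0.07 and -0.10, and without wildtype recipient 2 it was -0.05. Without the array that stood apart it was -0.17, and Rfc4 moved from -0.21 to -0.57, Pole from 0.32 to 0.03 and Lig1 from 0.21 to -0.08. Macrophage and leukocyte markers were lower in null tumours for all 10 measured, by a median of -0.21, and skeletal muscle markers higher for 5 of 6, by 0.68, with none called. Mean macrophage and leukocyte markers were 11.44, 11.70 and 11.33 in wildtype recipients and 11.51, 11.43 and 10.81 in null ones. Mean muscle markers were 7.22, 6.77 and 6.67 against 7.65, 6.75 and 8.48, so in both lists the genotypes overlapped. The part of these cell types in the tumour result was not tested. The genotype difference in tumours minus that in transformed MEFs was negative for 34 of 37 genes (median -0.44). limma called none of them and 0% of all genes, with 9 of the 37 and 800 of all at an unadjusted p under 0.05. The smallest p was that of Cdc45, at -0.94 ± 0.22 (adjusted p = 0.323), then Gins2 (-0.77, adjusted p = 0.556) and Mcm6 (-0.83, adjusted p = 0.615). Tk1 (-0.91) and Mcm3 (-0.90) had larger differences than Mcm6 with a larger p. With the shared spread, and with no filter on detection, 1 replication gene was called.

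Tumours were last set against the cells they came from. The fit of all 6 groups gave each stage its own weight, and on simulated data it made more false calls here than its threshold allows, so a fit of the compared groups alone is given beside it. In wildtype, 3 replication genes were higher in tumours and 4 lower, 18.9% against 38.4% of all genes (19.4% higher and 19% lower), and the fit of these groups alone called 4. In Smchd1 null, 1 was higher and 17 lower, 48.6% against 44.1% of all genes (22.8% higher and 21.3% lower), with a median of -0.47, and the other fit called 22. Of 17 genes with more than 1 detected probe, 7 had probes of opposite sign in wildtype: Lig1, Mcm4, Mcm7, Prim2, Rfc2, Rpa2 and Tk1. In null there were 3, Lig1, Mcm6 and Rpa2. Sizes depended on the probe too, with Rrm2 in wildtype at -0.02 by the probe used and -1.04 by another. All 5 nucleotide supply genes and all 10 helicase genes were lower in null tumours than in null transformed MEFs, and 5 of each were called. For Mcm6 a probe detected on 12 arrays gave 0.86 there. Of the helicase genes, Mcm7 (-0.004) and Mcm10 (-0.01) hardly differed by the probe used. A second probe of each, detected on all 30 arrays, gave -1.54 for Mcm7 and -0.35 for Mcm10. The size and direction of these 2 are therefore uncertain.

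Gins2 was called lower in both genotypes. It was at 9.76, 9.71 and 9.65 in wildtype transformed MEFs and 8.52, 9.35 and 8.63 in the tumours, and at 10.02, 10.01 and 10.04 against 8.40, 8.46 and 8.29 in null ones. The differences were -0.88 ± 0.17 and -1.64 ± 0.17 (limma adjusted p = 0.000612 and 9.11e-07). Ccne2, cyclin E2, was at 7.95, 7.68 and 7.90 against 6.46, 7.54 and 6.09 in wildtype, and at 7.93, 8.11 and 8.27 against 6.27, 6.39 and 6.76 in null (-1.14 ± 0.30 and -1.63 ± 0.30). Its probe was detected on 18 of the 30 arrays and lay near background in tumours. Dut was at 7.50, 7.47 and 7.44 against 6.50, 6.80 and 6.68 in wildtype (-0.81 ± 0.26, adjusted p = 0.0214).

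Pole was called higher in tumours of both genotypes. It went from 7.72, 7.67 and 7.59 to 8.75, 8.26 and 8.11 in wildtype (0.71 ± 0.19) and from 8.13, 7.99 and 8.0 to 8.93, 8.82 and 8.33 in null (0.65 ± 0.19). Mcm10 (0.55 ± 0.20) and Fen1 (0.51 ± 0.18) were the other 2 called higher in wildtype tumours, with adjusted p-values of 0.0388 and 0.0355. Mcm10 was at 10.62, 10.37 and 11.16 in wildtype recipients and Fen1 at 11.20, 11.57 and 11.89, all above the 3 transformed replicates. Rpa2, the middle subunit of the single-strand binding protein, was at 8.13, 8.05 and 8.52 in null tumours and 9.79, 9.56 and 9.70 in null transformed MEFs (-1.45 ± 0.21, adjusted p = 2.39e-05). A second Rpa2 probe went the other way, higher in null tumours by 1.65, so the direction for Rpa2 is uncertain.

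**Figure D5:**
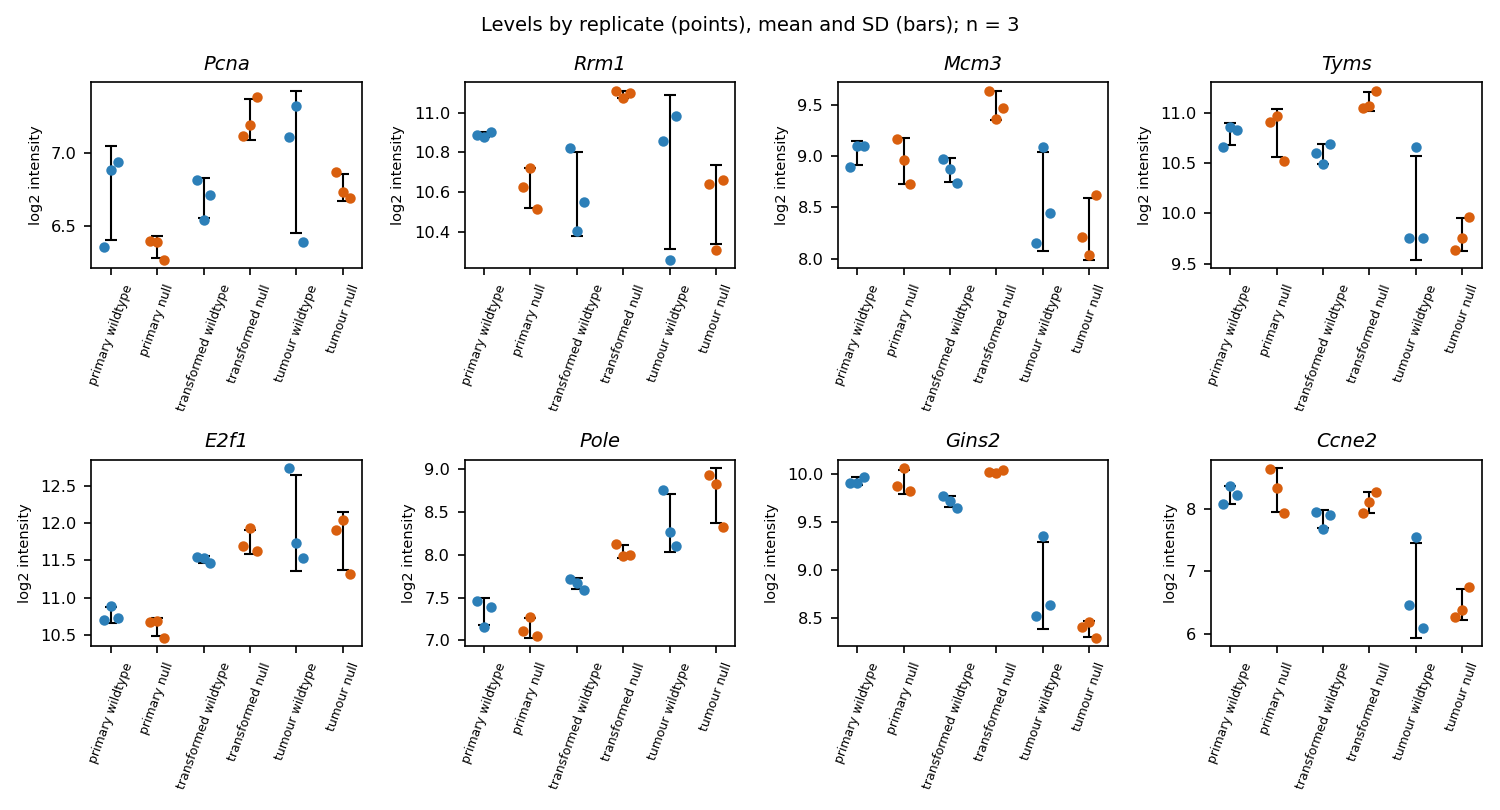
Points are replicates (blue wildtype, orange null) of 8 replication genes over the 6 groups in log2 intensity, with bars for mean ± SD (n = 3). Pcna, Rrm1, Mcm3 and Tyms are highest in null transformed MEFs or overlap there with wildtype tumours, E2f1 and Pole are low in primary MEFs, and Gins2 and Ccne2 are low in tumours.

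Against primary MEFs, tumours had 5 replication genes higher and 7 lower in wildtype (32.4% against 50.2% of all genes, 24.8% higher and 25.4% lower). In null they had 5 higher and 12 lower (45.9% against 54.7%, 27.7% higher and 27% lower). These counts come from the same weighted fit of all 6 groups. Its error rate was not simulated against primary MEFs, so the counts may be too high, as against transformed MEFs. The same 5 genes were higher in both genotypes: E2f1, Pole, Mcm10, Cdt1 and Chaf1a. E2f1 differed by 1.23 ± 0.23 and 1.15 ± 0.23, Pole by 1.04 ± 0.19 and 1.55 ± 0.19, and Mcm10 by 0.76 ± 0.20 and 0.83 ± 0.20. Among the genes lower, Ccne2 differed by -1.52 ± 0.30 and -1.83 ± 0.30, Gins2 by -1.09 ± 0.17 and -1.53 ± 0.17, and Rpa2, by the same probe as above, by -1.17 ± 0.21 and -1.59 ± 0.21. These comparisons share the tumour samples with those above.

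The counts in tumours depended on scaling and on single recipients. With the values as deposited, which were not scaled across stages, the median of all genes was 0.37 higher in tumours than in transformed MEFs. Then 18 replication genes were called higher and 0 lower in wildtype, and 7 higher and 6 lower in null, where the joint scaling gave 3 and 4, and 1 and 17. Against primary MEFs the deposited values gave 9 higher and 3 lower in wildtype, and 13 higher and 4 lower in null. Relative to the median of all genes, the replication genes' median in null tumours against null transformed MEFs was negative on both scales. Without wildtype recipient 1 or 3 the count in wildtype was 2 or 4, and without null recipient 4 or 5 that in null was 11 or 9. Without wildtype recipient 1 the count against primary MEFs was 8, and without null recipients 4 or 5 it was 11 in null. Erythroid markers were higher in tumours than in transformed MEFs for 4 of 4 measured in both genotypes, and macrophage and leukocyte markers for 10 of 10, most of them from levels below background. The part of host cells, and of chip, which changes with stage, was not tested.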

How the data were processed

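The members, gene lists and tests were chosen with earlier results of these data known. The deposited values are log2 intensities. BeadStudio, limma 3.12.1 and R 2.15.1 stand in the submitters' processing notes. How background was corrected is not stated there. As far as the values show, the authors had normalized each stage separately. The scanner tables deposited by the authors hold intensities and detection p-values per the file headers (BeadStudio 3.4.0). No sample label matches their 480 columns, which were given to no sample, and only probe names and the number of arrays with a detection p under 0.01 were taken, after matching all 45281 rows.

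All 30 arrays were quantile normalized together. Probes detected on at least 3 arrays were kept (20254), and a gene was its kept probe with the highest mean. Symbols were updated through a GRCm38.p6 gene table (27400 probes current, 8341 older). Background was taken from probes that no array detected, as their 95th percentile. Tests used limma 3.58.1 in R 4.3.3 on log2 values: a fit per stage for genotype, a fit of the 4 culture groups for transformation and the interaction, and a fit of all 6 groups with stage weights (1.68 primary, 1.91 transformed, 0.311 tumour) for tumours. Fits were tested on simulated data, where the tumour fit per stage made few calls and the weighted fit too many. The number of arrays limits the precision. Replicate values were given for the 3 largest rises and falls called in a comparison, or the called and then the smallest p, and the brightest gene of a role over all groups. Replicate numbers were not taken as pairs. Alternatives were the deposited scale, other filters, all probes of a gene, other estimates of the spread, single tumour chips, the replicate block and leaving out each replicate.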

Additional observations from a re-analysis of the deposited data

Results flagged for a closer look

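Of 74 combinations of a replication gene and a tumour group, 3 had an array far from the other 8 of its group. The combinations share arrays, and arrays of the same recipient are not independent, so no chance rate is given. All 3 were on the same array, that of wildtype recipient 3 on chip 3. There Lig1 was at 8.41 (others 10.11 to 11.43), Pole at 6.34 (others 8.17 to 9.05) and Rfc4 at 6.15 (others 8.87 to 10.15). The genotype difference differed between primary and transformed MEFs, by limma's interaction term, for Pcna (0.91, adjusted p = 0.0341) and Rrm1 (0.77, adjusted p = 0.0152).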

How the results depend on the processing

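Genotype and interaction calls were few in all stages and depended on the estimate of the spread. The spread shared by all 6 groups takes in the more variable tumours. It had not held its error rate on simulated data in earlier work, so a call lost there is not decided by it. In transformed MEFs the 10 calls became 0 with 1 spread shared by all 6 groups, 7 with the replicate block and 1 to 6 with a replicate left out. The interaction's 2 calls became 0 with the shared spread, 4 with all probes of a gene averaged, 1 with no filter on detection, 5 with probes detected on at least 15 arrays, 1 with the replicate block, 6 with deposited values, and 1 to 7 with a replicate left out. The 15 calls of transformation in wildtype became 5 with the shared spread and 9 to 15 with a replicate left out. For tumours against transformed MEFs, the 7 calls in wildtype became 4 in a fit of these groups only, 2 on chip 3, 18 with deposited values and 2 to 8 with a replicate left out. The 18 in null became 10 on chip 2 and 9 to 19 with a replicate left out. Against primary MEFs the 12 in wildtype became 7 on chip 3, and the 17 in null became 11 on chip 2 and 11 to 18 with a replicate left out. The interaction with tumours went from 0 to 1 with the shared spread and with no filter. With all probes of a gene averaged, Rpa2 turned positive in tumours: 0.0581 against null transformed, 0.316 against wildtype primary and 0.0785 against null primary MEFs. The cause was not tested. The replicate block moved no other count by over 1.5 times. Same-numbered wildtype and null replicates correlated, as deviations from group means over all genes, at -0.37 to -0.01 in primary and 0.05 to 0.07 in transformed MEFs. Over the replication genes these were -0.39 to -0.03 and 0.05 to 0.25. Over all genes every transformed sample, but no primary one, correlated best with its own number, which is a hint from the data and not from the design. Background correction of scanner intensities was not run, because their columns match no sample. Dim probes (Pcna, Orc1, Dut, Ccne2) lay near background in some groups, which limits their differences.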
